A study of Mus musculus with 27 samples.

Results

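Fibrotic-like and homeostatic periportal assembloids were compared after 1 week of culture, by bulk sequencing of their polyA RNA. Assembloids are small co-cultures, embedded in Matrigel, of mouse hepatocyte organoids (HepOrgs), cholangiocytes (the epithelial cells that line bile ducts) and portal mesenchymal cells (fibroblasts that surround the ducts). The comparison used 6 of the 27 libraries analysed in the series, 3 of each group, taken by their sample titles. Each homeostatic well received 10 HepOrgs, 1000 dissociated cholangiocytes and 250 portal mesenchymal cells, and each fibrotic-like well received the same HepOrgs and cholangiocytes with 2500 portal mesenchymal cells. Both groups shared the C57BL/6 background, a genotype labelled wild type, 7 days in Matrigel and the MM medium, which holds Wnt conditioned medium and a ROCK inhibitor. The number of mesenchymal cells seeded is thus the only labelled difference between them. A further 6 assembloid libraries, from cultures of 18 days (2.5 weeks), shared the fit and served to estimate the spread.

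According to the study's methods, the mesenchymal cells generally came from PDGFRα-H2B-GFP mice and were sorted for SCA1, and the cholangiocytes came from organoids of mice with a nuclear tdTomato reporter. The mesenchymal cells were used straight from the sort or after a few passages, and which of these holds here is not labelled. Neither endothelial nor immune cells were added. Each library holds the RNA of whole assembloids, so fewer cells of a type and less RNA per cell cannot be told apart. The labels do not say whether replicates came from separate cultures or animals, so p-values measure only the spread between these libraries, which may be technical.

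In the liver, portal fibroblasts lie next to the bile ducts and, when activated in biliary disease, secrete fibrillar collagens and other extracellular matrix. Hepatocytes make most plasma proteins and carry out the urea cycle, gluconeogenesis, bile acid synthesis and drug metabolism, and those at the portal end of the lobule differ from those near the central vein. Duct cells are recognised by keratins 7 and 19 and by the transcription factor SOX9.

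Homeostatic replicate 2 stood apart from every other assembloid library. It had counts in 8465 genes, whereas the other 5 libraries at 1 week had counts in 14452 to 15848 genes at total counts of 38218834 to 65348596, and its own total was 35279254. Its Spearman correlations across genes with the other 11 assembloid libraries lay between 0.657 and 0.710, and the medians for the other 5 libraries at 1 week lay between 0.929 and 0.962. Of 7445 genes above 5 counts per 1e6 counts (without TMM scaling) in all of the other 11 libraries, 1870 had no count in it. Levels are therefore given for all libraries, and tests mainly with homeostatic replicate 2 left out (the 11-library fit). The log2 fold change with all libraries (the 12-library fit), in which no gene passed the test, is added wherever a log2 fold change is printed whose sign differed between the fits or whose values lay over 1 apart. Fibrotic-like replicate 3 was the next most distant, with Krt7 and Msln, a mesothelial marker, among its 10 most abundant genes. Levels below are in CPM (TMM-scaled counts per 1e6 counts), and the TMM factors ran from 0.632 in homeostatic replicate 1 to 1.69 in fibrotic-like replicate 3. They compare a gene between libraries and not one gene with another.

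The cell type markers that the study uses were first summed in each library. The 9 mesenchyme markers summed to 149, 2329.9 and 369 CPM in homeostatic replicates 1, 2 and 3, and to 2593, 6138 and 748 CPM in fibrotic-like replicates 1, 2 and 3. All 3 fibrotic-like libraries were above homeostatic replicates 1 and 3, whereas homeostatic replicate 2 lay within their range. The 10 hepatocyte markers summed to 119869, 3342 and 47794 CPM in the homeostatic libraries and to 23205, 28391 and 3666 CPM in the fibrotic-like libraries. The lowest sums were those of homeostatic replicate 2 and fibrotic-like replicate 3. The same 2 libraries had the highest sums of the 6 cholangiocyte markers, which were 87.2, 6827 and 598 CPM in homeostatic and 1283, 409 and 5197 CPM in fibrotic-like assembloids.

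The 8 mesothelial markers, which mark the cells lining the liver surface, were also highest in homeostatic replicate 2 and fibrotic-like replicate 3. They summed to 7.04, 3266 and 141 CPM in homeostatic and 83.9, 90.2 and 2378 CPM in fibrotic-like libraries. Nearly all of it was Msln (mesothelin), at 6.71, 3266 and 139 CPM in homeostatic and 81.5, 74.6 and 2375 CPM in fibrotic-like libraries. The 2 groups overlapped for both, and their part in the results that follow was not tested. Endothelial markers stayed between 0.22 and 1.78 CPM for 8 genes and immune markers between 0.044 and 16.4 CPM for 10 genes. Between 6 and 8 of the 10 immune markers were at 0 in each library, and Clec4f, Cd3e, Itgam and Timd4 were listed at 0 in all 6. Itgam was listed at 0 in all 27 libraries of the series, isolated hepatocytes included. The highest immune sum, in fibrotic-like replicate 2, was mostly Lyz2 (lysozyme of myeloid cells), at 0.393, 0.022 and 0.135 CPM in homeostatic and 2.28, 12 and 0.465 CPM in fibrotic-like libraries (log2 fold change 4.06 ± 1.25, adjusted p = 0.0655 in the 11-library fit). Its part in the results was not tested.

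**Figure D1:**
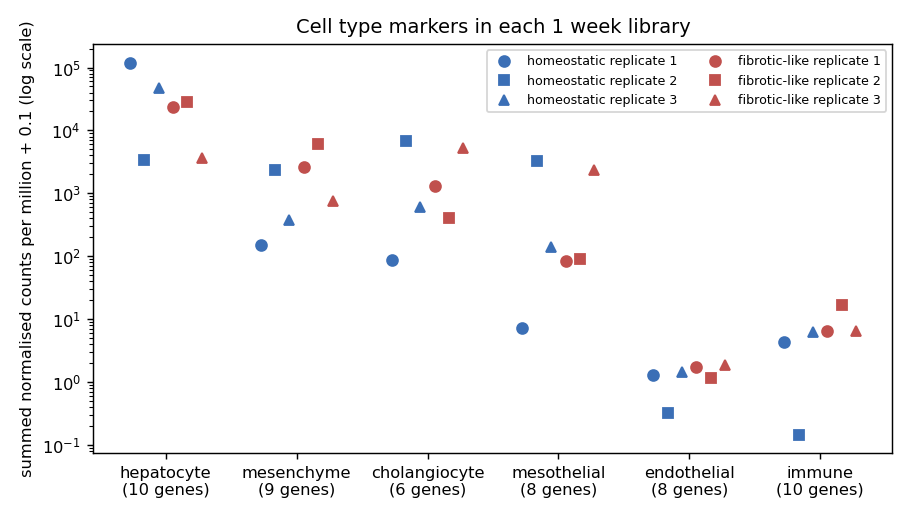
Summed CPM of 6 marker lists (x axis) in each 1 week library, with 0.1 added and a logarithmic y axis. Circles, squares and triangles are replicates 1, 2 and 3, homeostatic in blue and fibrotic-like in red. Homeostatic replicate 2 and fibrotic-like replicate 3 have the lowest hepatocyte sums (3342 and 3666) and the highest cholangiocyte sums (6827 and 5197).

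The comparison asked which genes differ when the assembloid starts with an excess of mesenchyme. With homeostatic replicate 2 left out, 463 of 14748 genes rose and 718 fell in fibrotic-like assembloids. The genes that rose included the mesenchymal receptor Pdgfra, matrix and collagen-maturation genes, the chemokine Ccl11, the receptor Axl and genes of cell division. Of the 6 cholangiocyte markers only the duct transcription factor Sox9 rose. The genes that fell included hepatocyte genes of lipid transport, gluconeogenesis, the urea cycle and the acute phase. With all libraries no gene passed the test. Of the 463 genes that rose, 380 had positive and 82 negative differences in the 12-library fit and 1 was not tested there, and all 718 that fell had negative differences.

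In the 12-library fit edgeR called 0 of 14255 genes (0% called), with a lowest adjusted p of 0.271, while 1167 genes were higher and 845 lower at an unadjusted p under 0.05. On the same libraries DESeq2 called 642 genes higher and 225 lower, and voom with sample quality weights, which gave homeostatic replicate 2 a weight of 0.00666, called 880 higher and 1347 lower. The 11-library fit called 3.14% of genes higher and 4.87% lower, with a lowest adjusted p of 0.0193. The estimate of the spread drew on the 2.5 week libraries as well. With only the 5 remaining libraries of 1 week in the fit edgeR called 0 of 14172 genes (lowest adjusted p 0.0765, 1794 higher and 1812 lower unadjusted), while DESeq2 called 1571 higher and 1567 lower. When a second library was left out, the calls fell to 0 without homeostatic replicate 1, fibrotic-like replicate 1 or fibrotic-like replicate 2, to 214 higher and 162 lower without homeostatic replicate 3, and to 192 higher and 80 lower without fibrotic-like replicate 3.

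The split between higher and lower genes differed on log2(TPM + 1) values tested with limma. That alternative changed the scaling, the gene filter, the pseudocount and the test together, and their parts cannot be told apart. On it the median log2 difference of all genes was 0.83 with homeostatic replicate 2 left out, against 0.16 after TMM, and 3331 genes were called higher and 279 lower. With all libraries that median was 0.87 against 0.20, and 733 genes were called higher and 2 lower. Differences below are on the TMM scale. A TPM value of the opposite sign is given beside only some of them. The signs of named genes that turned on TPM are listed under how the results depend on the processing.

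**Figure D2:**
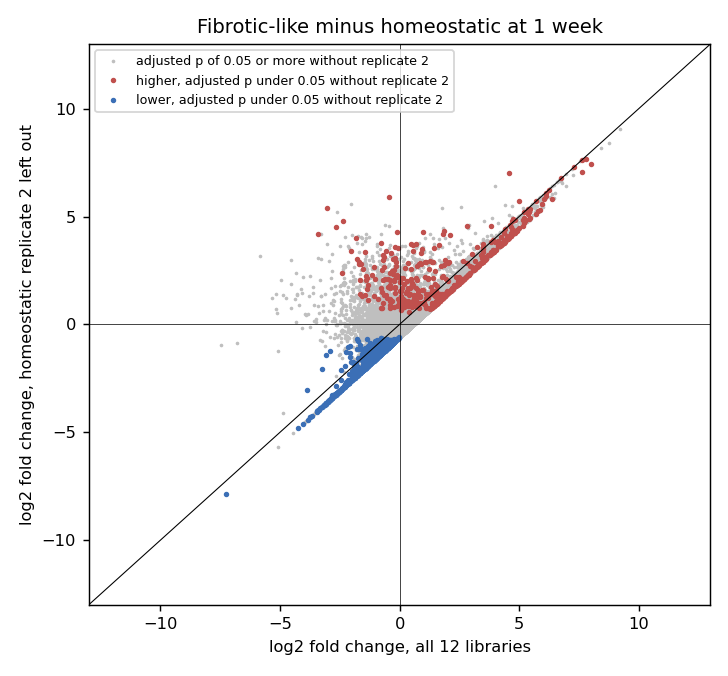
Log2 fold change (fibrotic-like minus homeostatic, 1 week) of each gene with all 12 libraries (x axis) and with homeostatic replicate 2 left out (y axis), with a line of equality. Red and blue points are the 463 higher and 718 lower genes called with that library left out, and the red points left of the vertical line have a negative difference when it is included.

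Pdgfra (chr5:75311994-75358876, GRCm39), the PDGF receptor that marks portal fibroblasts, stood at 0.917, 1.12 and 1.51 CPM in homeostatic and at 29.8, 118 and 6.33 CPM in fibrotic-like libraries. The groups did not overlap, and fibrotic-like replicate 3 was the lowest of its group. Its log2 fold change was 5.34 ± 1.27 (SE) in the 11-library fit (adjusted p = 0.0447) and 5.39 ± 1.06 in the 12-library fit (adjusted p = 0.271). Vim (vimentin, the intermediate filament of mesenchymal cells) was at 37, 37.1 and 38.2 CPM in homeostatic and 370.4, 512 and 29 CPM in fibrotic-like libraries. Fibrotic-like replicate 3 was below all 3 homeostatic libraries, and the difference was 3.01 ± 1.04 (adjusted p = 0.0818) in the 11-library fit and 3.02 ± 0.87 in the 12-library fit. Ly6a, which encodes the SCA1 used to sort these cells, was at 15.3, 1376 and 97.5 CPM in homeostatic and 86.2, 139.9 and 485 CPM in fibrotic-like libraries, with homeostatic replicate 2 above all others and the groups overlapping. Its difference was 2.07 ± 0.90 (adjusted p = 0.14) in the 11-library fit and −1.07 ± 1.21 (adjusted p = 0.746) in the 12-library fit.

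Of the 9 mesenchyme markers tested, 1 (Pdgfra) rose and 0 fell in the 11-library fit, with a median log2 fold change of 3.01 beside 0.16 over all genes. Over all genes 3.14% rose and 4.87% fell in that fit, and the counts of list members below stand beside these shares. In the 12-library fit 1 marker was higher in every fibrotic-like library than in every homeostatic one, and the median was 2.90 beside 0.20. Over all genes 17.3% lay wholly higher and 6.16% wholly lower in the 6 libraries, and 26.1% and 23.4% in the 5 libraries without homeostatic replicate 2. Of 16 portal fibroblast markers tested, 0 passed the test in either direction, 6 (37.5%) were wholly higher and 1 wholly lower in the 5 libraries, and the median was 2.83 (2.71 with all libraries). Dcn (decorin, a collagen-binding proteoglycan) was at 27.9, 62.6 and 86.5 CPM in homeostatic and 416, 1187 and 79.3 CPM in fibrotic-like libraries (adjusted p = 0.0703 in the 11-library fit). Its fibrotic-like replicate 3 lay inside the homeostatic range.

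The stellate cell markers, which mark the other collagen-producing cell of the liver, had a median of 1.44 over 10 genes tested in the 11-library fit, with 0 rising and 1 (Angptl6) falling. Contractile and myofibroblast genes, which mark activated fibroblasts, had a median of 1.63 over 13 genes with 0 called. In the 5 libraries 6 of them (46.2%) were wholly higher, beside 26.1% of all genes. In the 6 libraries 2 of them (15.4%) were wholly higher, beside 17.3% of all genes. With all libraries those medians were 0.69 and 0.16.

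Among the matrix genes, collagen transcripts were highest in fibrotic-like replicates 1 and 2. The 44 collagen genes summed to 267, 1307 and 525 CPM in homeostatic and to 2756, 6450.1 and 559 CPM in fibrotic-like libraries. Fibrotic-like replicate 3 was close to homeostatic replicate 3 and below homeostatic replicate 2. Col1a1 (chr11:94827050-94843868, GRCm39), a chain of type I collagen, was at 38.4, 272 and 73.3 CPM in homeostatic and 741, 1514 and 68.7 CPM in fibrotic-like libraries. The groups overlapped through fibrotic-like replicate 3, and the log2 fold change was 3.79 ± 1.12 (adjusted p = 0.0601) in the 11-library fit and 2.60 ± 1.01 (adjusted p = 0.317) in the 12-library fit. Col1a2, the other type I chain, was at 23.3, 203 and 63.3 against 439, 921 and 50.6 CPM (log2 fold change 3.44 ± 1.10, adjusted p = 0.0699 in the 11-library fit, and 2.28 ± 1.00 in the 12-library fit). Col3a1, the chain of type III collagen, was at 30.7, 393 and 71.7 against 851, 2751 and 99.9 CPM (log2 fold change 4.59 ± 1.29, adjusted p = 0.0547, and 2.90 ± 1.18 with all libraries).

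None of these 3 fibrillar chains passed the test, and Col3a1 alone of them was wholly higher in the fibrotic-like libraries once homeostatic replicate 2 was left out. Of 38 collagens tested in the 11-library fit, 2 rose, the basement membrane chains Col4a2 and Col4a5, and 0 fell. The shares over all genes were 3.14% and 4.87%. In the 5 libraries 11 collagens (28.9%) were wholly higher, a share near the 26.1% of all genes, and 1 was wholly lower (2.63%, beside 23.4%), and the median of 1.44 was the same as with all libraries.

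Collagen maturation genes rose with 2 of 27 members and fell with 0, beside 3.14% and 4.87% of all genes. Serpinh1, the collagen chaperone HSP47, was at 1.08, 4.79 and 3.88 CPM in homeostatic and 29.9, 51.7 and 11.2 CPM in fibrotic-like libraries. Every fibrotic-like library was above every homeostatic one, and the log2 fold change was 3.61 ± 0.81 (adjusted p = 0.0442) in the 11-library fit and 3.23 ± 0.77 (adjusted p = 0.271) in the 12-library fit. Loxl3, a lysyl oxidase that crosslinks collagen, was at 0.688, 0 and 1.22 against 12.7, 23.2 and 1.99 CPM (log2 fold change 3.66 ± 0.92, adjusted p = 0.0471 in the 11-library fit). The list as a whole had a median of 1.18 in the 11-library fit and 0.61 with all libraries.

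Matrix glycoproteins rose with 3 of 35 members (Fbln1, Thbs1 and Lamb1) and fell with 0, and their median was 2.35, the next highest among matrix lists after the proteases at 2.56. With all libraries those medians were 1.19 and 1.06. Fbln1 (fibulin-1, a component of elastic fibres and basement membranes) was at 0.852, 0 and 1.83 CPM in homeostatic and 28.1, 111 and 6.13 CPM in fibrotic-like libraries. The groups did not overlap in the 5 libraries, homeostatic replicate 2 was at 0, and it rose by a log2 fold change of 5.11 ± 1.34 (adjusted p = 0.048). Lamb1, a laminin chain of basement membranes, was at 2.49, 79 and 11.6 against 68.6, 113 and 68.1 CPM (log2 fold change 3.54 ± 0.70, adjusted p = 0.0431). Homeostatic replicate 2 lay within the fibrotic-like range, and with it included the difference was 1.42 ± 0.94 (adjusted p = 0.538).

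Thbs1 (thrombospondin-1, a matrix protein that can activate TGF-β) turned on that library more strongly. It was at 5.8, 476 and 19 CPM in homeostatic and 179, 86.3 and 179 CPM in fibrotic-like libraries, so homeostatic replicate 2 was the highest of all 6. The log2 fold change was 3.57 ± 0.67 (adjusted p = 0.0408) without it and −0.17 ± 1.17 (adjusted p = 0.964) with it. Serpinb2, an inhibitor of plasminogen activators, behaved alike, at 3.08, 1159 and 2.2 CPM in homeostatic and 63.4, 108 and 11.1 CPM in fibrotic-like libraries. Its difference was 4.51 ± 0.82 (adjusted p = 0.0408) in the 11-library fit and −2.68 ± 1.75 (adjusted p = 0.533) in the 12-library fit.

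The matrix proteases Mmp2 and Mmp3 and the protease inhibitor Timp2 did not pass the test. Mmp2, which cleaves denatured and basement membrane collagen, was at 10.1, 279 and 51.7 CPM in homeostatic and 232, 596 and 56.9 CPM in fibrotic-like libraries (log2 fold change 3.25 ± 1.08, adjusted p = 0.0756 in the 11-library fit, and 1.37 ± 1.08 in the 12-library fit). Mmp3 (stromelysin-1) was at 4.49, 772 and 76.3 against 314, 544 and 122 CPM (log2 fold change 3.02 ± 1.11, adjusted p = 0.0967, and 0.20 ± 1.23 with all libraries). Timp2 was at 5.11, 462 and 47.6 against 104, 154 and 102 CPM (log2 fold change 2.18 ± 0.74, adjusted p = 0.0806, and −0.52 ± 1.06 with all libraries). All 3 were wholly higher in fibrotic-like libraries once homeostatic replicate 2, the highest library for Mmp3 and Timp2, was left out. Of 22 proteases and inhibitors tested in the 11-library fit 1 rose, Serpine2, and 0 fell, beside 3.14% and 4.87% of all genes. Timp1 was listed at 0 in all 6 libraries and was not tested.

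**Figure D3:**
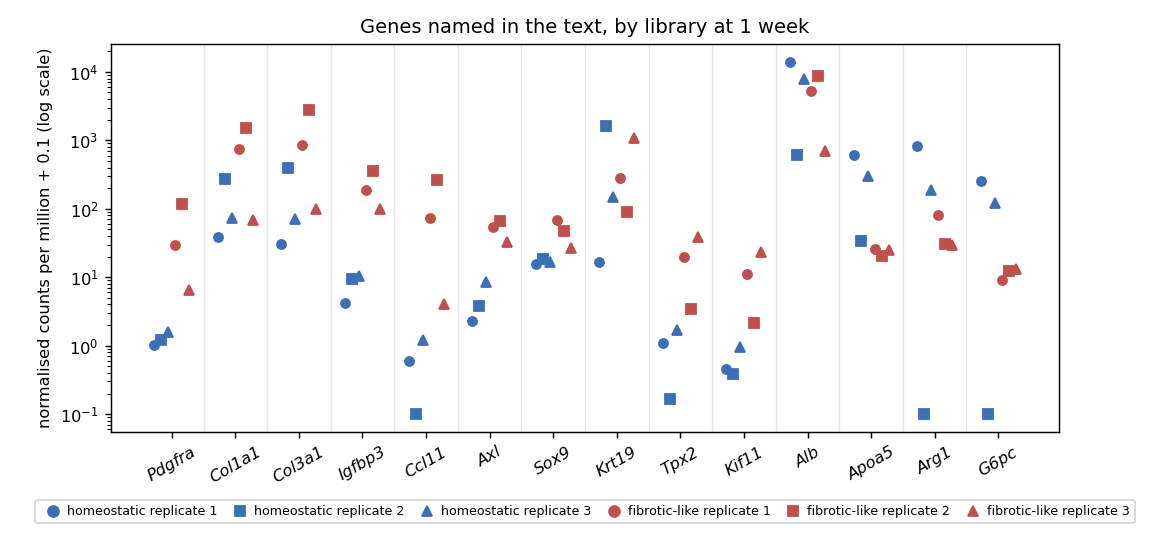
CPM of 14 genes (x axis) in each 1 week library, with 0.1 added and a logarithmic y axis. Symbols are replicates 1 to 3, homeostatic in blue and fibrotic-like in red. Pdgfra, Igfbp3, Ccl11, Axl, Sox9, Tpx2 and Kif11 do not overlap between the groups (homeostatic replicate 2 is at 0 for Ccl11), whereas Krt19, Col1a1, Col3a1 and Alb do.

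Signalling genes between the cell types were examined next. Axl (chr7:25456535-25488329, GRCm39), a receptor tyrosine kinase, was at 2.16, 3.65 and 8.53 CPM in homeostatic and 53.3, 67 and 32.5 CPM in fibrotic-like libraries. The groups did not overlap, with or without homeostatic replicate 2. It rose by a log2 fold change of 3.23 ± 0.59 (adjusted p = 0.0408) in the 11-library fit, and the difference was 3.40 ± 0.59 (adjusted p = 0.271) in the 12-library fit. Its ligand Gas6 was at 203, 118 and 329 CPM in homeostatic and 253, 497 and 159 CPM in fibrotic-like libraries, with overlapping groups (adjusted p = 0.831).

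Of 8 adhesion and signalling genes named by the study and tested, Axl alone passed the test in the 11-library fit. The adhesion receptor Cdh11 (cadherin-11) was at 1.47, 61.5 and 6.56 against 17.3, 78.6 and 9.21 CPM (log2 fold change 3.10 ± 1.18, adjusted p = 0.104, and 0.60 ± 1.26 with all libraries). The collagen receptor Ddr2 was at 1.34, 145 and 5.9 against 20.1, 42.8 and 4.87 CPM (log2 fold change 2.61 ± 0.93, adjusted p = 0.09, and −1.17 ± 1.33 with all libraries). Homeostatic replicate 2 was the highest library for Ddr2 and the next highest for Cdh11. Itgb1 (integrin β1, a subunit of many matrix receptors) was at 221, 457 and 269.7 against 409, 336 and 614 CPM (adjusted p = 0.086). Cd63, a tetraspanin that binds Timp1, was at 734, 702 and 759 against 729, 909 and 244 CPM (log2 fold change −0.25 ± 0.47, adjusted p = 0.729, positive at 0.58 on log2(TPM + 1)). Fgb, the fibrinogen β chain made by hepatocytes, was at 27144, 233 and 15519.5 against 5359.6, 6358 and 2307 CPM (log2 fold change −2.19 ± 0.71, adjusted p = 0.0718).

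Chemokines and cytokines rose with 3 of 23 members (Ccl11, Il33 and Csf1) and fell with 0, with a median of 1.27 in the 11-library fit and −0.03 in the 12-library fit. Ccl11 (eotaxin, which attracts eosinophils) was at 0.491, 0 and 1.12 CPM in homeostatic and 74, 267 and 4 CPM in fibrotic-like libraries. The groups did not overlap in the 5 libraries, although fibrotic-like replicate 3 was far below the other two, and the log2 fold change was 7.06 ± 1.75 (adjusted p = 0.0465). Cxcl12, a chemokine of stromal cells, was at 55.9, 0 and 57.4 against 71.4, 281 and 15.3 CPM (adjusted p = 0.397), with overlapping groups. Cxcl1, a neutrophil chemokine, was at 169, 399 and 399.7 against 231, 210.1 and 92.1 CPM, and its log2 fold change of −0.68 ± 0.49 (adjusted p = 0.347) was positive on log2(TPM + 1), at 0.37.

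Growth factor genes rose with 3 of 24 members (Pdgfra, Hbegf and Igfbp3) and fell with 0. Igfbp3, a secreted binding protein of insulin-like growth factors, was at 4.13, 9.48 and 10.3 CPM in homeostatic and 188, 358 and 98.4 CPM in fibrotic-like libraries. All fibrotic-like libraries were above all homeostatic ones by a wide margin, and the log2 fold change was 4.89 ± 1.28 (adjusted p = 0.048) in the 11-library fit and 4.75 ± 1.06 (adjusted p = 0.271) in the 12-library fit. Itm2a, which encodes a membrane protein, was at 2.19, 0 and 3.01 against 181, 1175 and 7.94 CPM (log2 fold change 7.42 ± 1.94, adjusted p = 0.048). Gja1 (connexin 43, a gap junction channel) was at 2.78, 0.022 and 11.5 against 55.9, 69.1 and 95.5 CPM (log2 fold change 3.35 ± 0.65, adjusted p = 0.0423). All 3 kept the groups apart in the 5 libraries. In homeostatic replicate 2 Itm2a had no count and Gja1 1 count.

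The TGF-β list, which holds ligands, receptors and targets of the main profibrotic pathway, rose with 3 of 26 members (Ltbp3, Ltbp4 and Tgif1) and fell with 0. All 26 members had positive differences in the 11-library fit (median 1.29), and 18 did in the 12-library fit (median 0.83). Ltbp4, which tethers latent TGF-β to the matrix, was at 0.197, 0.044 and 0.0965 CPM in homeostatic and 3.13, 3.79 and 4.75 CPM in fibrotic-like libraries. Its groups did not overlap (log2 fold change 4.42 ± 0.86, adjusted p = 0.0424), but homeostatic replicates 1, 2 and 3 had only 6, 2 and 5 counts. The YAP list, of targets and other genes of the pathway, rose with 4 of 13 members (Amotl1, Axl, Tead1 and Ptpn14). Its median was 1.95 (0.71 with all libraries). Amotl1, an angiomotin that binds YAP, was at 0.622, 21.3 and 3.47 against 21, 15.6 and 44 CPM, with homeostatic replicate 2 inside the fibrotic-like range (log2 fold change 3.67 ± 0.85, adjusted p = 0.0442, and 1.66 ± 1.04 with all libraries). No member of the Notch list (13 tested, median 1.26, and 1.24 with all libraries) or of the Wnt target list (14 tested, median 1.39, and 1.23 with all libraries) passed the test.

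Duct genes showed 1 gene that passed the test and 2 keratins that did not. Sox9, the transcription factor of duct cells, was at 15.6, 18.1 and 16.5 CPM in homeostatic and 69.3, 46.5 and 26.3 CPM in fibrotic-like libraries. The homeostatic libraries were close together, all fibrotic-like libraries were above them, and the log2 fold change was 1.56 ± 0.41 (adjusted p = 0.0482) in the 11-library fit and 1.50 ± 0.42 (adjusted p = 0.274) in the 12-library fit. Krt19 (chr11:100031636-100039491, GRCm39), a duct keratin, was at 16.4, 1635 and 148 CPM in homeostatic and 286, 90.1 and 1078 CPM in fibrotic-like libraries. Krt7, its partner duct keratin, was at 20.8, 3256 and 201 against 431, 96.8 and 2709 CPM. Both keratins overlapped between the groups, were highest in homeostatic replicate 2 and varied by over an order of magnitude within each group. Within the fibrotic-like group Sox9 was lowest in replicate 3, where both keratins were highest.

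The log2 fold change of Krt19 was 2.56 ± 1.35 (adjusted p = 0.205) in the 11-library fit and −0.31 ± 1.38 (adjusted p = 0.945) in the 12-library fit, and that of Krt7 was 3.28 ± 1.44 (adjusted p = 0.142) and −0.10 ± 1.47 (adjusted p = 0.983). On log2(TPM + 1) both were positive with all libraries, at 1.65 and 1.70. Of 6 cholangiocyte markers 1 (Sox9) rose. Their median was 2.61 in the 11-library fit and −0.10 in the 12-library fit, where 2 differences were positive and 4 negative. Of 18 further cholangiocyte markers 0 passed the test, and the median was 1.48 in the 11-library fit and −0.02 in the 12-library fit, where 9 differences were positive and 9 negative.

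Genes of cell division were higher in fibrotic-like assembloids. Of 35 cell cycle genes tested, 11 rose and 0 fell in the 11-library fit (Ccna2, Cdk1, Bub1b, Kif20a, Tpx2, Birc5, Ube2c, Cdc20, Mcm4, Mcm7 and Rrm2). All 35 had positive differences in that fit, and the median was 3.01 beside 0.16 over all genes. In the 5 libraries 29 (82.9%) were wholly higher, beside 26.1% of all genes. With all libraries 24 were wholly higher in the 6 libraries and the median was 3.47, but 26 of the 35 genes had no count in homeostatic replicate 2. In the 12-library fit 30 differences were positive and 5 negative, and 3 of the 5 were genes that rose without that library: Bub1b (3.56 ± 0.87 in the 11-library fit and −0.06 ± 1.28 in the 12-library fit), Mcm4 (2.06 ± 0.55 and −0.42 ± 0.95) and Mcm7 (1.83 ± 0.47 and −0.38 ± 0.86). Mcm7, a subunit of the replicative helicase, was at 20.9, 261 and 23 CPM in homeostatic and 58.6, 41.3 and 134 CPM in fibrotic-like libraries, with homeostatic replicate 2 the highest of all 6. Their sum was 158, 629 and 190.3 CPM in homeostatic and 761, 312 and 1508 CPM in fibrotic-like libraries. Fibrotic-like replicate 3, which had the lowest mesenchyme sum and the highest cholangiocyte sum of its group, was the highest, and which cells divided was not measured.

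Cdc20, an activator of the anaphase-promoting complex, was at 4.62, 0 and 2.6 CPM in homeostatic and 40.6, 9.95 and 53.9 CPM in fibrotic-like libraries (log2 fold change 3.26 ± 0.72, adjusted p = 0.0442 in the 11-library fit). Ube2c, the ubiquitin-conjugating enzyme of that complex, was at 1.51, 0 and 1.35 against 17.8, 4.95 and 46.1 CPM (log2 fold change 3.97 ± 0.90, adjusted p = 0.0442). Cdk1, the kinase that drives entry into mitosis, was at 4.45, 0 and 3.22 against 23.7, 11.5 and 56.4 CPM (log2 fold change 2.98 ± 0.70, adjusted p = 0.0447). All 3 kept the same order, with fibrotic-like replicate 3 highest, replicate 1 next and replicate 2 lowest of that group but still above homeostatic replicates 1 and 3. Cdc20, Ube2c and Cdk1 were chosen after their values were seen.

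Tpx2, a spindle assembly factor, was at 0.983, 0.066 and 1.62 CPM in homeostatic and 19.7, 3.38 and 38.5 CPM in fibrotic-like libraries (log2 fold change 3.93 ± 0.95, adjusted p = 0.0456). The mitotic motors Kif11 (0.36, 0.286 and 0.849 against 11.1, 2.06 and 23.3 CPM, adjusted p = 0.0513) and Cenpe (0.262, 0 and 0.791 against 8.16, 2.45 and 23.2 CPM, adjusted p = 0.0502) lay just past the threshold. Pcna, the sliding clamp of DNA replication, was at 16.3, 9.02 and 19.1 against 39.8, 21.7 and 79.6 CPM (log2 fold change 1.41 ± 0.46, adjusted p = 0.0748). All 4 genes kept the groups apart in the 5 libraries. In homeostatic replicate 2 Cenpe had no count and Tpx2 3 counts.

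**Figure D4:**
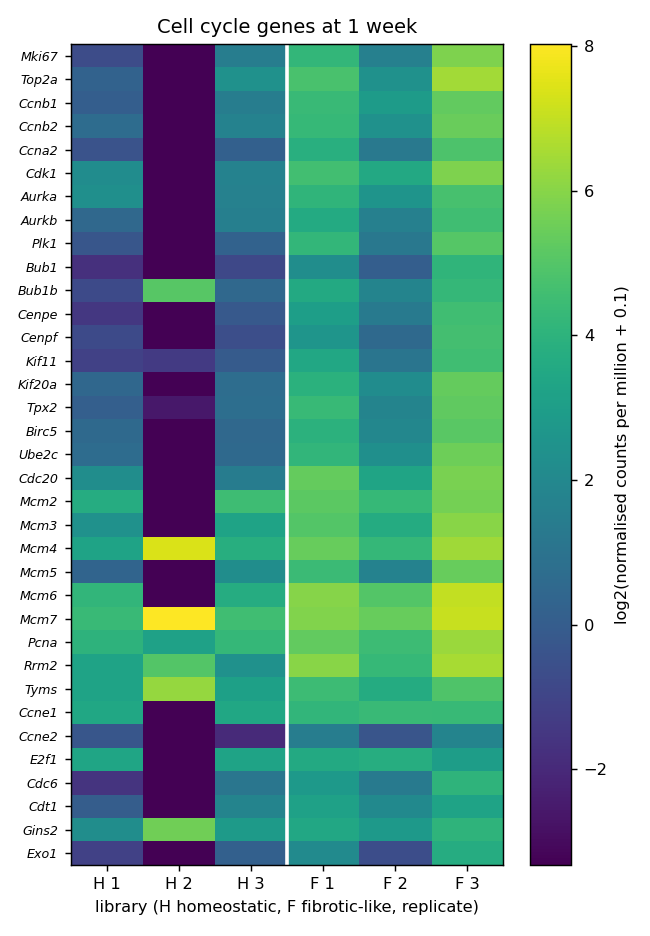
Heat map of log2(CPM + 0.1) of 35 cell cycle genes (rows) in the 6 libraries (columns, H homeostatic and F fibrotic-like, with replicate numbers). Fibrotic-like replicates 1 and 3 are the brightest columns for most genes, and 26 genes are at 0 in homeostatic replicate 2.

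Mitotic genes are commonly controlled through CCAAT boxes and the CHR element (TTTGAA or TTTAAA) near their start sites, so these letters were searched on both strands of the 250 bases before each start in RefSeq promoters. The promoter sequences are of build GRCm38.p6, an earlier build than the GRCm39 of the counts, and 7 of the 11 cell cycle genes that rose had an entry, with 8 promoters. The last 150 bases before the start of 3 of them are shown because they hold both elements, with the elements on either strand in capitals.
Cdc20, minus strand, chr4:118437344-118437493: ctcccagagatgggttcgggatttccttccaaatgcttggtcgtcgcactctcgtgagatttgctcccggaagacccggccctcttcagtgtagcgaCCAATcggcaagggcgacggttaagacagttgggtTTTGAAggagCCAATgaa
Ube2c, plus strand, chr2:164769779-164769928: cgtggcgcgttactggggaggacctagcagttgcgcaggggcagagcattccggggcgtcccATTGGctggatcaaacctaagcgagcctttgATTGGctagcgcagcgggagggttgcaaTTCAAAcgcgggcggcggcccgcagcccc
Cdk1, minus strand, chr10:69352913-69353062: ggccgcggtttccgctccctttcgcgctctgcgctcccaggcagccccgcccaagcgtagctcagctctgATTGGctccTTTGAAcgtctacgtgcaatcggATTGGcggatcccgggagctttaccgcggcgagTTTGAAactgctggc
CCAAT was present in 87.5% of the 8 promoters, TTTGAA or TTTAAA in 50% and both in 37.5%. Over the 28 promoters of the whole cell cycle list the shares were 78.6%, 50% and 42.9%, whereas the shares over all 32851 RefSeq promoters were 33.8%, 25.2% and 8.78%. The letters are a description of these windows and not of any factor's binding.

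Hepatocyte genes were examined by function. Apoa5 (chr9:46179931-46183217, GRCm39), an apolipoprotein of triglyceride-rich particles, was at 620.1, 33.9 and 300.1 CPM in homeostatic and 25.8, 20.6 and 25 CPM in fibrotic-like libraries. The groups did not overlap even with homeostatic replicate 2, and it fell by a log2 fold change of −4.27 ± 0.51 (adjusted p = 0.0293) in the 11-library fit, with −3.74 ± 0.85 (adjusted p = 0.271) in the 12-library fit. Alb (albumin, the main plasma protein) was at 14126, 620.4 and 7809.6 CPM in homeostatic and 5193, 8835 and 688 CPM in fibrotic-like libraries. Its groups overlapped, and its log2 fold change of −1.16 ± 0.90 (adjusted p = 0.375) in the 11-library fit and −0.62 ± 1.04 (adjusted p = 0.837) in the 12-library fit was positive on log2(TPM + 1) with all libraries, at 0.39. Hnf4a, the transcription factor that maintains hepatocyte identity, was at 239.7, 183 and 217 against 119.7, 151 and 108 CPM. It was lower in every fibrotic-like library, with a log2 fold change of −0.85 ± 0.25 (adjusted p = 0.0575) that was 0.16 on log2(TPM + 1).

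Of the 10 hepatocyte markers 0 passed the test and the median was −2.07 in the 11-library fit. In the 5 libraries 8 (80%) were wholly lower, beside 23.4% of all genes. Plasma protein genes fell with 3 of 22 members (Serpinc1, F9 and C3), and 19 (86.4%) were wholly lower in the 5 libraries (median −2.19). In the 6 libraries 2 hepatocyte markers (20%) and 0 plasma protein genes were wholly lower, beside 6.16% of all genes. C3, the central complement component, was at 8417, 560.2 and 6452 CPM in homeostatic and 1392, 1465 and 827 CPM in fibrotic-like libraries (log2 fold change −2.60 ± 0.67, adjusted p = 0.0474). Serpinc1 (antithrombin) was at 3775, 85.1 and 1477 against 399, 312 and 162 CPM (log2 fold change −3.17 ± 0.78, adjusted p = 0.0465). Homeostatic replicate 2 was below every fibrotic-like library for both, so the groups separated only without it.

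The periportal list, of enzymes enriched where blood enters the lobule, fell with 5 of 12 members (Cyp2f2, Arg1, Fbp1, G6pc and Hsd17b13) and had the lowest median of all lists in the 11-library fit, −2.75. G6pc, the glucose-6-phosphatase that releases glucose, was at 256, 0 and 120.2 CPM in homeostatic and 9.01, 12.3 and 13.1 CPM in fibrotic-like libraries (log2 fold change −4.03 ± 1.03, adjusted p = 0.0474). The fibrotic-like libraries were within a narrow range, below homeostatic replicates 1 and 3. Cyp2f2, a periportal cytochrome P450, was at 31.4, 0 and 31.7 against 6.27, 0.722 and 0.713 CPM (log2 fold change −3.59 ± 0.90, adjusted p = 0.0471). The pericentral list had a median of −1.10 over 10 genes, and Glul alone fell. Glul (glutamine synthetase) was at 205, 43.1 and 114 CPM in homeostatic and 28.3, 29.2 and 34.4 CPM in fibrotic-like libraries, without overlap in all 6 (log2 fold change −2.38 ± 0.58, adjusted p = 0.0465). Whether the periportal and pericentral lists differ from each other was not tested.

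The urea cycle, which turns ammonia into urea, fell with 3 of 8 members (Asl, Arg1 and Slc25a13), and all 8 had negative differences in both fits. Arg1 (arginase 1) was at 822, 0 and 191 CPM in homeostatic and 81.8, 30.9 and 29.7 CPM in fibrotic-like libraries (log2 fold change −3.41 ± 0.77, adjusted p = 0.0442). Asl (argininosuccinate lyase) was at 252, 64.4 and 182 against 89.3, 90.1 and 70.5 CPM (log2 fold change −1.38 ± 0.33, adjusted p = 0.0455). For both, homeostatic replicates 1 and 3 were above all fibrotic-like libraries and homeostatic replicate 2 was below them.

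Bile acid genes fell with 2 of 19 members (Baat and Abcc3) and rose with 0 (median −2.01). Abcc3, an efflux pump of bile acid conjugates, was at 347, 96.5 and 365 CPM in homeostatic and 130.3, 142 and 93.9 CPM in fibrotic-like libraries (log2 fold change −1.54 ± 0.22, adjusted p = 0.0396). Cytochrome P450 genes fell with 3 of 20 members (Cyp2f2, Cyp3a13 and Cyp4a10) and rose with 0 (median −2.26). Cyp3a13, a drug-metabolising enzyme, was at 271, 68.8 and 149 against 81.4, 94.7 and 51.8 CPM (log2 fold change −1.47 ± 0.38, adjusted p = 0.0474). Hepatocyte transcription factors fell with 2 of 18 members (Nr1h4 and Onecut1), beside 4.87% of all genes, and had a median of −1.36.

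Further enzymes and carriers of hepatocytes were among the genes that fell most. Mat1a, the liver enzyme that makes the methyl donor S-adenosylmethionine, was at 3435, 90.2 and 1253 CPM in homeostatic and 221, 149 and 147 CPM in fibrotic-like libraries (log2 fold change −3.77 ± 0.82, adjusted p = 0.0442). Slc25a47, a mitochondrial carrier of the liver, was at 3041, 4.79 and 1104 against 97.1, 98.8 and 134 CPM (log2 fold change −4.24 ± 0.87, adjusted p = 0.0431). Ces1f, a carboxylesterase, was at 300.3, 0 and 149.9 against 7.78, 11.9 and 14.1 CPM (log2 fold change −4.32 ± 0.73, adjusted p = 0.04). The fibrotic-like libraries lay close together for all 3, and homeostatic replicate 2 was below them.

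The acute phase list, of plasma proteins that hepatocytes secrete in response to IL-6, fell with 3 of 19 members (Orm1, Orm2 and Hamp) and rose with 0 (median −2.25). Orm1 (orosomucoid) was at 9789, 211 and 4511 CPM in homeostatic and 1029.6, 1078 and 500.4 CPM in fibrotic-like libraries (log2 fold change −3.04 ± 0.71, adjusted p = 0.0442). Hamp (hepcidin, the hormone of iron balance) was at 2.26, 0 and 64.1 against 0.0959, 0.106 and 0.109 CPM, so its log2 fold change of −7.86 ± 1.56 (adjusted p = 0.0431) rested largely on homeostatic replicate 3. Saa1 (serum amyloid A) was at 9877, 244 and 3641 against 500.3, 74 and 317 CPM (adjusted p = 0.0527), and Hp (haptoglobin) was at 59575, 1573 and 32611 against 9123, 10656 and 3131 CPM (adjusted p = 0.0659). Orm1 and Orm2 are near-identical copies, so reads may be split between them, and the same holds for the Saa genes.

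All of these hepatocyte lists had negative medians with all libraries after TMM scaling, from −2.16 (periportal) to −0.82 (transcription factors). On log2(TPM + 1) with all libraries they lay between −0.09 and 0.39, with positive medians for the hepatocyte markers, the bile acid, plasma protein, cytochrome P450, transcription factor and pericentral lists, beside 0.87 over all genes. With homeostatic replicate 2 left out they were negative on that scale as well, from −2.24 (periportal) to −0.34 (transcription factors), beside 0.83 over all genes.

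**Figure D5:**
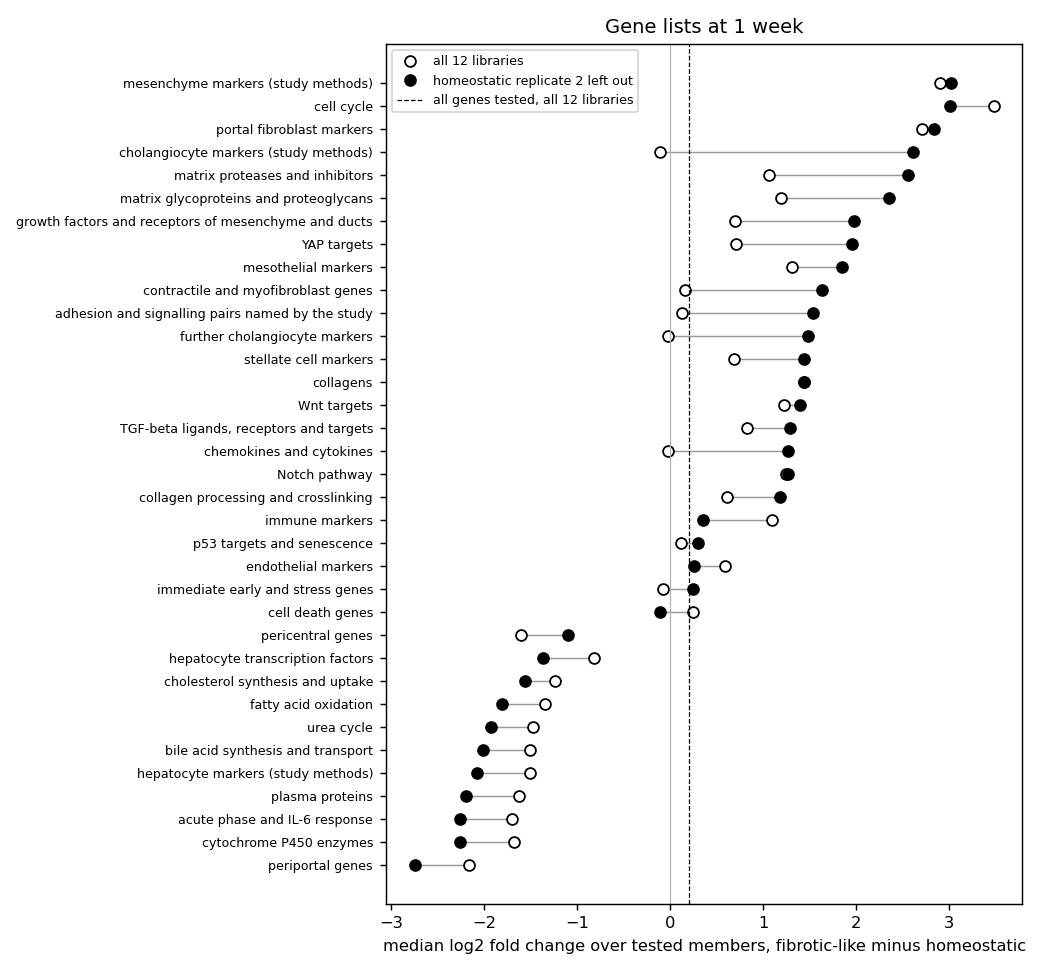
Median log2 fold change (x axis, fibrotic-like minus homeostatic) over the tested members of each gene list with all 12 libraries (open circles) and with homeostatic replicate 2 left out (filled circles). The dashed line is the median of all genes tested with all libraries, 0.20. Cell cycle and mesenchyme lists are at the top, periportal genes at the bottom, and the list of 6 cholangiocyte markers shifts most between the fits.

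Cell death genes were examined because the study asked whether hepatocytes died in fibrotic-like assembloids. Of 20 genes tested 2 rose and 0 fell in the 11-library fit, and the median was −0.10 (0.24 with all libraries). Of 20 p53 targets and senescence genes 1 rose (Tnfrsf10b, a death receptor) and 0 fell, with a median of 0.30 (0.11 with all libraries). Of 21 immediate early and stress genes 0 rose and 1 fell (Chac1). The shares over all genes in that fit were 3.14% higher and 4.87% lower.

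The reporter genes were counted as well. The eGFP reporter was at 0.753, 10.4 and 103 CPM in homeostatic and 19.7, 68.9 and 632 CPM in fibrotic-like libraries, with overlapping groups (adjusted p = 0.508 in the 11-library fit). The tdTomato reporter was at 0.295, 5.23 and 121 against 15.1, 1.88 and 7.58 CPM (adjusted p = 0.329), and was highest in homeostatic replicate 3. The eGFP level was highest in fibrotic-like replicate 3, which had the lowest mesenchyme sum of its group. The labels do not give the reporter colours of these libraries.

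The difference at 1 week was set against that at 2.5 weeks by a test of the change itself, which showed no gene past the threshold. In the 12-library fit edgeR called 0 of 14255 genes, with 173 higher and 105 lower at an unadjusted p under 0.05, and DESeq2 and voom with quality weights called 0 as well. In the 11-library fit edgeR called 0 of 14748, with 242 higher and 263 lower unadjusted, and DESeq2 called 0 higher and 5 lower. The 1 week difference of Axl, 3.23, stood beside 3.21 at 2.5 weeks, and that of Ccl11, 7.06, beside 7.71. For Pdgfra the values were 5.34 and 4.43, for Col1a1 3.79 and 3.83, and for Arg1 −3.41 and −0.23. For Apoa5 they were −4.27 and −2.33, and for Kif11 4.22 and 1.34. None of these changes passed the test.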

How the data were processed

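PolyA RNA of assembloids was sequenced as SMARTseq2 libraries. Paired reads were aligned by the authors (STAR, GRCm39) and summarised per gene by featureCounts, giving the deposited count table, in which every library also has a TPM. The whole-number counts entered all main tests unchanged. The deposited TPM, which divides by a gene length with introns included, served as an alternative scale only. The table holds 37 libraries of 21850 rows each, and the 10 libraries that no label maps to a sample were not used.

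The 12 assembloid libraries were fitted with 1 mean per condition by the quasi-likelihood test of edgeR 4.0.16 in R 4.3.3 (TMM, low-count filter filterByExpr at its settings of 10 per library and 15 in total, a prior count of 2, Benjamini-Hochberg adjustment over all genes tested, threshold 0.05, two-sided). Every adjusted p in the text is from this test unless another tool is named. The fit was repeated without homeostatic replicate 2. SEs are the absolute log2 fold change divided by the square root of F. The code of the main fit was tested on simulated counts. These held no outlying library, so that test does not bear on homeostatic replicate 2. A gene is called wholly higher or lower when all libraries of one group lie beyond all of the other.

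Alternatives were RLE size factors, DESeq2 1.42.0, limma 3.58.1 voom with sample quality weights, no filter on low counts, at least 10 counts in every library, only the 2 groups compared, limma on TPM values with 1 or 0.1 added before log2 (genes reaching 1 TPM in 3 libraries), a block for the replicate number, and fits that omit each 1 week library in turn. The same alternatives without homeostatic replicate 2 were added after the data were seen.

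Named genes are those the study names for this comparison, the reporters, up to 4 members of each gene list with the smallest p and up to 2 with the highest mean TPM, and, among called genes whose groups did not overlap and whose mean log2 CPM reached 5, the 10 that rose most and the 10 that fell most, or fewer. The groups, the gene lists and the genes were chosen with earlier results of these data known. Mesenchymal cell numbers per well were taken from the labels' growth protocol and the study's methods. Promoter sequences are from RefSeq. The results of some single genes are not reported here, though those genes stay in the fits and lists.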

Additional observations from a re-analysis of the deposited data

How the results depend on the processing

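Without homeostatic replicate 2 the number of calls depended on the method and on each remaining library. DESeq2 gave 2144 higher and 1964 lower genes, voom with sample quality weights 795 and 1603, at least 10 counts in every library 713 higher and 968 lower, log2(TPM + 1) 3331 and 279, log2(TPM + 0.1) 3807 and 306, and only the 2 groups compared 0 and 0 in edgeR, 1571 and 1567 in DESeq2 and 228 higher and 847 lower in voom. Leaving out a further library gave 0 to 214 higher and 0 to 162 lower. With all libraries DESeq2 gave 642 and 225, voom 880 and 1347, log2(TPM + 1) 733 and 2 and log2(TPM + 0.1) 161 higher and 0 lower, and leaving out 1 library gave 0 to 463 higher and 0 to 718 lower. The change between times stayed at 0 calls in edgeR, and DESeq2 without homeostatic replicate 2 gave 5 lower. An analysis of only the 2 groups cannot give the change between times. The cause was not tested in any of these cases.

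Whether replicate numbers pair the libraries was not settled by their deviations from the group means, which include those of homeostatic replicate 2. Of 18 pairs with the same number 6 had correlated deviations above 0.1 (r from −0.275 to 0.271), against 5 of 36 pairs with different numbers. The median r was 0.039 for the same number and −0.026 for different numbers. With the replicate number as a block edgeR called 0 genes with all libraries, and 0 higher and 0 lower without homeostatic replicate 2 (lowest adjusted p 0.0958). Under the block with all libraries 9 log2 fold changes took the opposite sign: Bub1b 1.28, Mcm4 0.21, Mcm7 0.15, Krt19 1.23, Krt7 0.99, Msln 0.62, Thbs1 0.95, Timp2 0.20 and tdTomato 0.58, the last also without homeostatic replicate 2 (0.65).

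Other signs that turned were these log2 fold changes. On log2(TPM + 1) and log2(TPM + 0.1) with all libraries they were 0.39 and 0.39 for Alb, 0.33 and 1.40 for Arg1, 0.72 and 1.82 for Bub1b, 1.14 and 1.28 for Mcm4, 1.18 and 1.22 for Mcm7, 0.34 and 0.34 for Cd63, 0.66 and 0.66 for Fgb, 0.0065 and 0.0076 for Hnf4a, 1.65 and 1.70 for Krt19, 1.70 and 1.77 for Krt7, 1.25 and 1.27 for Ly6a, 1.43 and 1.50 for Msln, 1.00 and 1.71 for Serpinb2, 2.41 and 2.64 for Thbs1, 1.44 and 1.94 for Timp2 and 0.49 and 0.78 for tdTomato, and on log2(TPM + 0.1) alone 0.79 for Ddr2 and 0.38 for G6pc. Without homeostatic replicate 2 they were 0.58 and 0.58 for Cd63, 0.37 and 0.38 for Cxcl1, 0.16 and 0.17 for Hnf4a and 0.51 and 0.96 for tdTomato. Under voom with all libraries they were 3.33 for Bub1b, 1.62 for Mcm4, 1.34 for Mcm7, 2.59 for Ddr2, 1.89 for Krt19, 2.04 for Krt7, 1.02 for Ly6a, 0.95 for Msln, 4.70 for Serpinb2, 3.64 for Thbs1 and 2.37 for Timp2, and with at least 10 counts in every library 0.30 for Bub1b, 0.048 for Krt19, 0.26 for Krt7 and 0.20 for Thbs1.

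Leaving out 1 of the 1 week libraries gave these ranges: Alb −1.35 to 0.24, Bub1b −0.63 to 3.56, Mcm4 −1.10 to 2.06, Mcm7 −1.03 to 1.83, Cd63 −0.59 to 0.16, Cdh11 −0.81 to 3.10, Ddr2 −2.03 to 2.61, Gas6 −0.073 to 0.92, Krt19 −1.67 to 2.56, Krt7 −2.13 to 3.28, Ly6a −2.13 to 2.07, Mmp3 −0.38 to 3.02, Msln −3.87 to 3.53, Serpinb2 −3.38 to 4.51, Thbs1 −0.69 to 3.57, Timp2 −1.05 to 2.18 and tdTomato −3.15 to 1.60. Leaving out a further library beside homeostatic replicate 2 gave Cd63 −0.62 to 0.14, Cxcl12 −0.38 to 1.64, Cxcl1 −1.17 to 0.15, Gas6 −0.37 to 0.65, eGFP −0.23 to 8.30 and tdTomato −3.87 to 4.70. Among the remaining values of the genes named, 833 with all libraries and 717 without homeostatic replicate 2 kept their direction and their side of the threshold, 128 and 100 passed it only under an alternative, and 298 without homeostatic replicate 2 kept their direction but not the threshold. Homeostatic replicate 2 had 8465 genes with counts at a total of 35279254, and fibrotic-like replicate 3 had 15410 at 38218834.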

Other observations

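Genes of cholesterol synthesis and uptake were lower in fibrotic-like assembloids. The list of 24 genes, and the genes named here, were chosen after their values were seen, so its counts describe these libraries and support nothing further. In the 11-library fit 16 of the 24 fell and 0 rose, and all 24 had negative differences in both fits (median −1.56, and −1.24 with all libraries). On log2(TPM + 1) the median was −0.53 in the 11 libraries and −0.34 with all libraries, beside 0.83 and 0.87 over all genes.

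Hmgcs1, the synthase that supplies the pathway with its precursor, was at 1369, 459 and 1009 CPM in homeostatic replicates 1 to 3 and 301, 235 and 269 CPM in fibrotic-like replicates 1 to 3. Fdps, which makes farnesyl diphosphate, was at 1255, 641 and 1203 against 301, 306 and 275 CPM (log2 fold change −2.06 ± 0.35, adjusted p = 0.04 in the 11-library fit). For both genes every homeostatic library, replicate 2 included, was above every fibrotic-like library. Sqle, the squalene epoxidase, was at 659, 255 and 578 against 186, 238 and 155 CPM (log2 fold change −1.68 ± 0.32, adjusted p = 0.0408). In the 6 libraries 10 of the 24 genes (41.7%) were wholly lower, against 6.16% of all genes. Srebf2, which encodes the transcription factor of this pathway, was at 36.1, 74.5 and 35.6 against 27.1, 29.6 and 47.7 CPM, with overlapping groups (adjusted p = 0.936).

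Fatty acid oxidation, by which mitochondria and peroxisomes burn fat, was listed in the same way after values were seen. Of its 26 genes 24 were tested, 19 fell and 0 rose in the 11-library fit, and all 24 had negative differences in both fits (median −1.81, and −1.34 with all libraries). On log2(TPM + 1) the median was −0.77 in the 11 libraries and −0.10 with all libraries. Ech1, an isomerase of the pathway, was at 568, 53.1 and 363 CPM in homeostatic and 109.8, 146 and 127 CPM in fibrotic-like libraries (log2 fold change −1.86 ± 0.28, adjusted p = 0.0396). Homeostatic replicates 1 and 3 were above the fibrotic-like libraries, and replicate 2 was below them. The summed CPM of this list ranked the 6 libraries as the hepatocyte marker sums did, with homeostatic replicate 2 lowest. The cholesterol list did not. It summed to 8070, 3103 and 6169 CPM in homeostatic and 2328, 2234 and 2045 CPM in fibrotic-like libraries. The part of the hepatocyte marker sums in either list was not tested.

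Some matrix genes could not be followed because of how the table lists them. Of 847 protein-coding genes that lie wholly inside another protein-coding gene of the table, 703 (83.0%) were listed at 0 in all 27 libraries, against 2464 of 20769 others (11.9%). Timp1, which lies inside Syn1, was among them, as were Ogn and Aspn (inside Cenpp), Fgf7, Cxcl10 and Igf2. A listed 0 for these genes is no measure of their expression. Ccl2 and Itgam were at 0 in all libraries as well without lying inside another gene.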
